A study of Mus musculus with 28 samples.

Results

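Cultured single neurons of mouse cortex were compared with cultured single neurons of mouse hippocampus, both sampled by TIVA (transcriptome in vivo analysis). The libraries were chosen by their source name in the labels, which gave 4 cortical and 4 hippocampal libraries, 8 of the 28 in the series. All 8 neurons came from C57BL/6 mice and had grown on coverslips for 7 to 9 days. In both regions the cells were incubated with 10 µM of the TIVA tag for 15 min and the tag was opened with the laser at 30% power, so region is the only labelled difference. Each library held the RNA of 1 neuron, amplified linearly in 3 rounds of in vitro transcription. The rest of the series, pipette-collected cultured neurons, neurons of tissue slices and bulk hippocampus, is used only to ask whether the region differences were also present in other libraries. The tissue slices and the bulk hippocampus came from mice 8 to 10 days old. For TIVA the slices took up the tag at 30 µM over 90 min, with the laser at 80% power. Those cells thus differ from the cultured ones in more than their source.

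A TIVA tag is a caged strand that enters living cells and cannot pair with RNA until light opens it. Light is directed at a single chosen cell, and the opened strand then anneals to the poly(A) tails of that cell's messenger RNAs so that they can be pulled out of the lysed sample. Cortex and hippocampus are neighbouring parts of the forebrain, and cultures of either hold mostly glutamatergic neurons with a minority of GABAergic interneurons, so a region comparison of single cells can also be a comparison of neuron types. The labels give region, strain and the word neuron, and no neuron type. Per the labels' protocol the field around the photolysed cell was aspirated with it before capture.

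The count tables list transcribed features under UCSC known-gene identifiers, which the files do not pair with gene symbols. Markers of neurons, glia or neuron types could therefore not be looked up, and the labelled cell type was not checked against them. Features are reported by identifier, 2 per direction, and otherwise as sets. The labels name neither the animal nor the culture a cell came from, so the 4 cells of a region may share both. Each region was counted as 1 sample, no test between the regions was run, and the spread given is that between cells. The labels give no library date, and a batch and the region cannot be told apart.

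The 4 cortical libraries held 12.2, 9.77, 15.5 and 10.4 M assigned reads (M for mega). The 4 hippocampal libraries held 20.3, 26.2, 21.0 and 9.13 M. A count of 0 allows a level of up to 3 reads, which was 0.114 to 0.329 CPM (counts-per-million, on assigned reads) in these libraries. Reads that fell outside every feature made up 67.5%, 61.1%, 49.5% and 43.4% of all counted reads in the cortical libraries and 19.9%, 22.3%, 24.7% and 38.4% in the hippocampal libraries. The medians were 55.3% and 23.5%, and no cortical library overlapped a hippocampal library. In pipette-collected cultured neurons the same medians were 68.7% in cortex and 67.5% in hippocampus, with overlapping ranges. The part of this share in the region differences below was not tested.

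**Figure D1:**
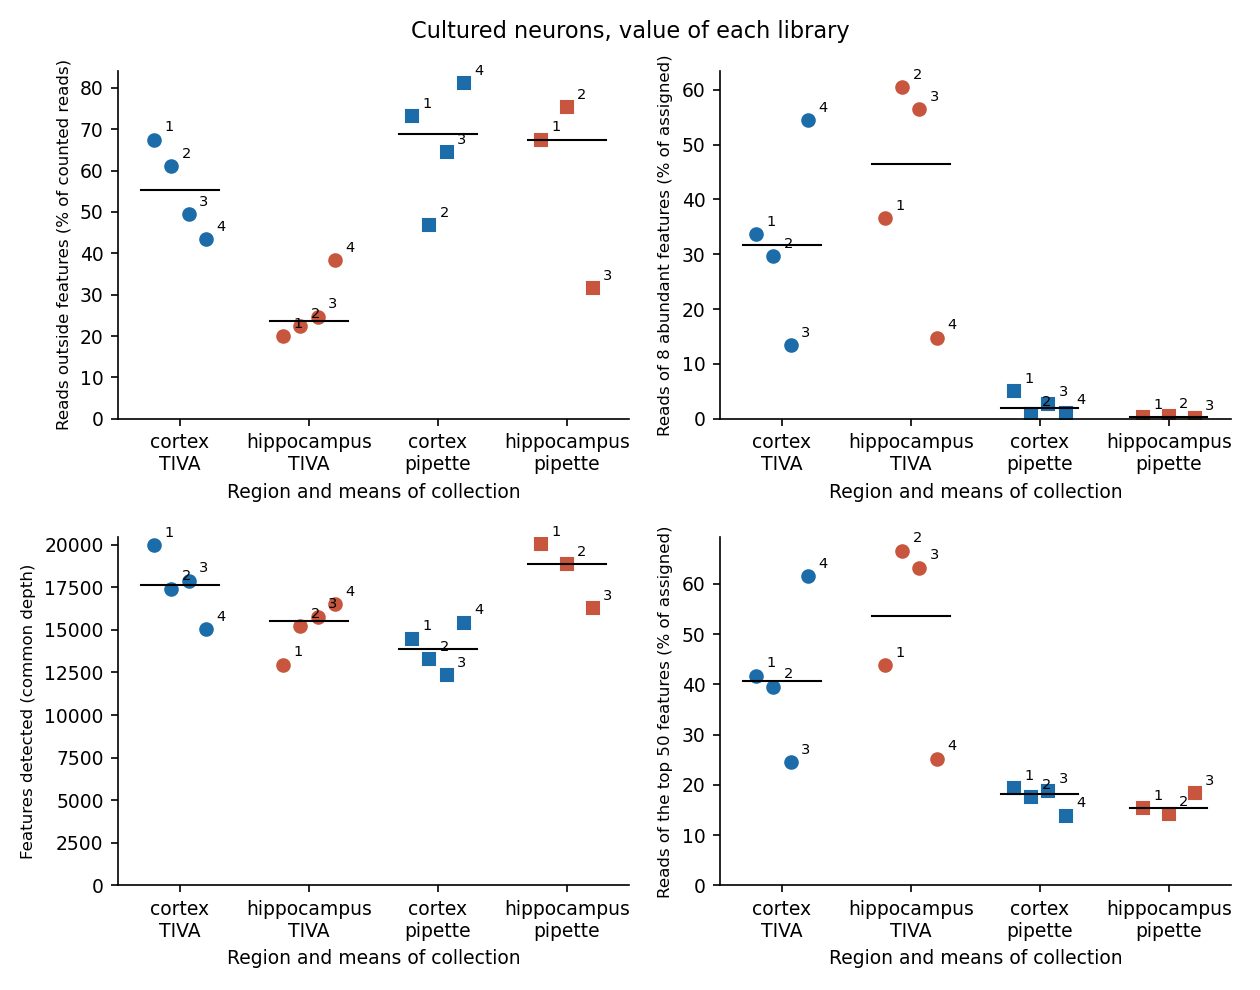
Each point is 1 cultured library, numbered within its group, with the median as a black line; the vertical axes give the percentage of reads outside features, the percentage of assigned reads in 8 abundant features, the number of features detected at 5.30 M reads and the percentage of assigned reads in the 50 most abundant features. Only the share of reads outside features separates the regions among the TIVA libraries (circles), with every cortical library at 43.4% or more and every hippocampal library at 38.4% or less.

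Cortical TIVA neurons yielded somewhat more features than hippocampal ones, but the ranges overlapped. After every library was thinned to 5.30 M reads, the smallest total of the series, 19984, 17423, 17895 and 15035 features had 1 or more reads in the cortical libraries. The hippocampal libraries had 12956, 15219, 15765 and 16501. The medians were 17659 (SD 2031) and 15492 (SD 1529), a difference of -2167 for hippocampus minus cortex. The pipette libraries differed in the other direction, with medians of 18871 in hippocampus and 13885.5 in cortex and no overlap. The number of detected features therefore did not follow region in the same direction under both means of collection.

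A few features took much of the reads in some libraries of each region. The 50 most abundant features held 41.7%, 39.6%, 24.5% and 61.5% of assigned reads in the cortical libraries and 43.8%, 66.6%, 63.2% and 25.2% in the hippocampal ones. Most of this was 8 abundant features, uc009vev to uc009vfc, which held 33.6%, 29.7%, 13.4% and 54.5% in cortex and 36.5%, 60.4%, 56.4% and 14.8% in hippocampus. Cortical library 4 was thus high among its group, and hippocampal library 4 and cortical library 3 were the lowest of theirs. The same 8 features held 0.827% to 5.02% of reads in the cortical pipette libraries and 0.0736% to 0.478% in the hippocampal ones. Since CPM is a share of assigned reads, a library with a large share in these features has lower CPM for all others.

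Similarity between libraries followed region only in part. Over the 10163 measured features, those averaging at least 5 CPM over both regions, Pearson's r of log2(CPM + 10) across features had a median of 0.863 within cortex (0.809 to 0.904, 6 pairs) and of 0.821 within hippocampus (0.769 to 0.960, 6 pairs). Between the regions the median was 0.805 (0.743 to 0.925, 16 pairs). Features are not independent of each other, and these correlations describe the 8 libraries. For 6 of 8 libraries the most similar other library came from the same region. The exceptions were cortical library 3 and hippocampal library 4, which resembled each other with r of 0.925. Their best matches within their own regions had r of 0.897 and 0.873. Hippocampal libraries 2 and 3 were among the 6 through each other (r of 0.960). With that pair set aside, both were nearest to cortical library 4 (0.870 and 0.893), ahead of hippocampal library 4 (0.835 and 0.873). The count of 6 was not retaken with the pair counted once.

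**Figure D2:**
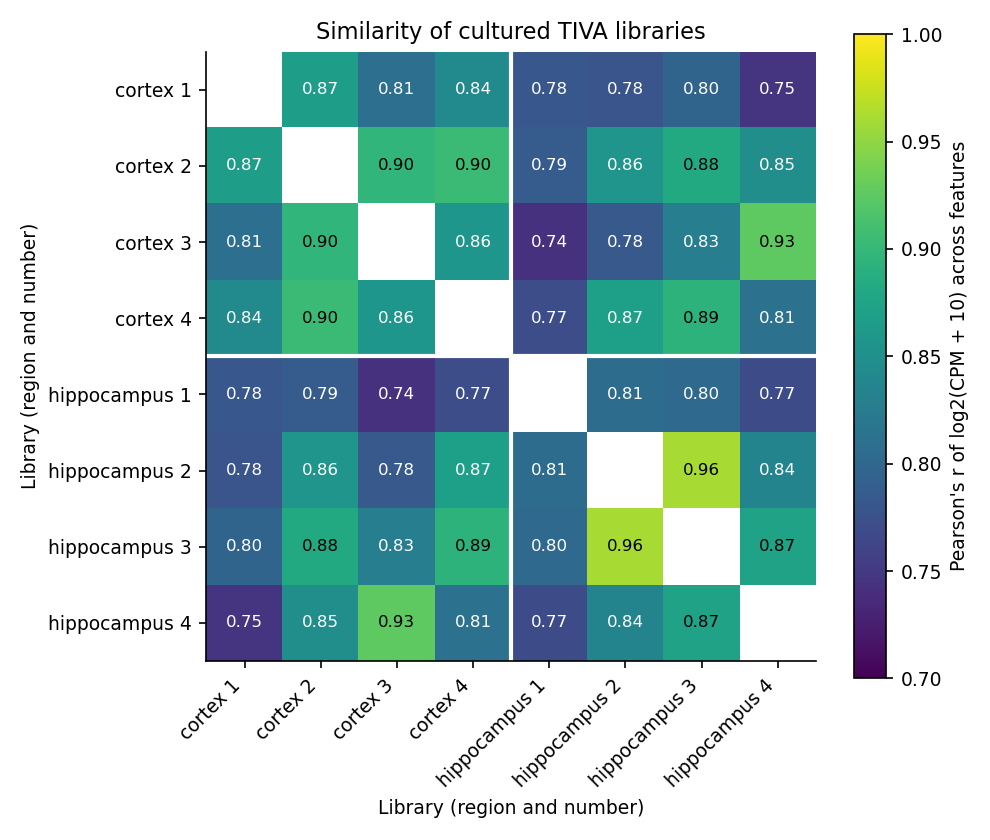
Each cell of the grid gives Pearson's r of log2(CPM + 10) between 2 of the 8 cultured TIVA libraries over the measured features, and white lines divide cortex from hippocampus. The pair of hippocampal libraries 2 and 3 (0.96) and the pair of cortical library 3 and hippocampal library 4 (0.93) are the most alike.

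Similarity was also counted as the number of features 2-fold or more apart between 2 cells. Within cortex a pair of cells differed at a median of 1955 features (1260 to 2891), and within hippocampus at a median of 2948 (59 to 3388). Pairs of a cortical and a hippocampal cell differed at a median of 2656.5 features (691 to 3523). By this count pairs of hippocampal cells were no more alike than pairs across the regions, unlike by r. With scaling to reads outside the top 50 features the medians were 2078.5 within cortex, 2864 within hippocampus and 2920 between the regions. The pair of cortical library 3 and hippocampal library 4 differed at 691 features, or 6.80% of those measured, and at 879 with the scaling outside the top 50. Cortical library 4 differed from hippocampal library 3 at 744, and at 1782 with that scaling. Hippocampal libraries 2 and 3 differed at 59 features, and at 409 with that scaling. Their counts differed by more than sampling noise (chi-square of 37.6 per degree of freedom, where noise alone gives about 1), which covers counting error only and not amplification, so it does not show whether they came from different cells. They were kept as 2 libraries, as labelled, and results that move when the pair is taken once are given with that value.

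The main axis of variation among the 8 cells was not region. The first principal component of log2(CPM + 10) held 40.2% of the variance and ran from cortical library 3 (-53.3) and hippocampal library 4 (-43.9) through cortical libraries 2 (-16.1) and 1 (-14.7) and hippocampal library 1 (3.44) to cortical library 4 (30.9) and hippocampal libraries 3 (41.0) and 2 (52.7). That is also the order of the libraries by the share of reads in the 8 abundant features. The third component (18.3%) put all 4 cortical libraries below 0, from -35.2 to -4.88, and all 4 hippocampal libraries above it, from 6.95 to 39.5. When each library was instead scaled to its reads outside its 50 most abundant features, the second component (23.7%) divided the regions, with cortex from -53.8 to -2.01 and hippocampus from 10.7 to 36.7. Of the first 4 components under each scaling, only these divided the regions, and they were picked for that. Cortical library 3 was the cortical cell nearest to 0 in both (-4.88 and -2.01).

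A minority of features differed 2-fold between the regions. The difference was taken as the hippocampal minus the cortical mean of log2(CPM + 10), a scale on which the change of features near or below 10 CPM is understated. Of the 10163 measured features, 121 (1.19%) were 2-fold or more higher in hippocampus and 416 (4.09%) were 2-fold or more higher in cortex. The median difference over all measured features was -0.16, and the median size of a difference was 0.31. The former was -0.28 without cortical library 4, -0.27 without hippocampal library 4, -0.11 without cortical library 3, -0.09 without hippocampal library 3 and -0.07 without hippocampal library 2, and -0.07 with hippocampal libraries 2 and 3 taken once. The median SD between cells of one region was 0.47 in cortex and 0.53 in hippocampus, so the typical region difference was smaller than the typical spread between cells. In 2192 features (21.6%) the difference exceeded the SD of both regions. That SD is between single cells and the difference is between group means. The share is thus no count of features that differ by region.

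The excess of cortex-high features depended on the scaling. With TMM scaling 228 features were 2-fold higher in hippocampus and 210 in cortex, so that hippocampus-high features made up 52.1% of both in place of 22.5%. With DESeq2 size factors the counts were 208 and 231 (47.4% hippocampus-high), and with scaling to reads outside the top 50 features 45.1% were hippocampus-high. The median difference over all features was 0.03 with TMM and 0.00 with DESeq2 size factors. The excess of cortex-high features is therefore not reported as a difference between the regions. Single libraries also moved these counts. Without cortical library 4, 766 features were 2-fold higher in cortex, without hippocampal library 4, 842 were, and without cortical library 3 and hippocampal library 4 together, 635 were. The hippocampus-high share was 12.7% without cortical library 4, 11.5% without hippocampal library 4, 14.9% without cortical library 3 and hippocampal library 4, and 37.0% without hippocampal library 2. Counting hippocampal libraries 2 and 3 once gave 170 features 2-fold higher in hippocampus and 323 in cortex (34.5% hippocampus-high).

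A stricter count asks that no cell of a region overlaps any cell of the other. All 4 hippocampal libraries lay above all 4 cortical libraries in 239 features (2.35%), and all 4 cortical libraries lay above all 4 hippocampal ones in 373 (3.67%). Both criteria, 2-fold and no overlap, were met by 93 hippocampus-high features (0.915%) and 156 cortex-high features (1.53%). The 2-fold criterion was met with overlapping cells by 28 hippocampus-high and by 260 cortex-high features. In 173 of those 260, cortical library 4 was the lowest cortical cell, and in 191 hippocampal library 4 was the highest hippocampal cell. The share without overlap depended on the scaling: 156 of 416 cortex-high features on assigned reads, 128 of 210 with TMM, 138 of 231 with DESeq2 size factors and 234 of 434 with reads outside the top 50. Without hippocampal library 4, 573 cortex-high features met both criteria, without cortical library 4, 379 did, without hippocampal library 1, 252 did, and without cortical library 3 and hippocampal library 4 together, 483 did. Leaving out any other single cell gave 149 to 195. Fewer cells make an absence of overlap easier to reach, and the cause of these changes was not tested.

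**Figure D3:**
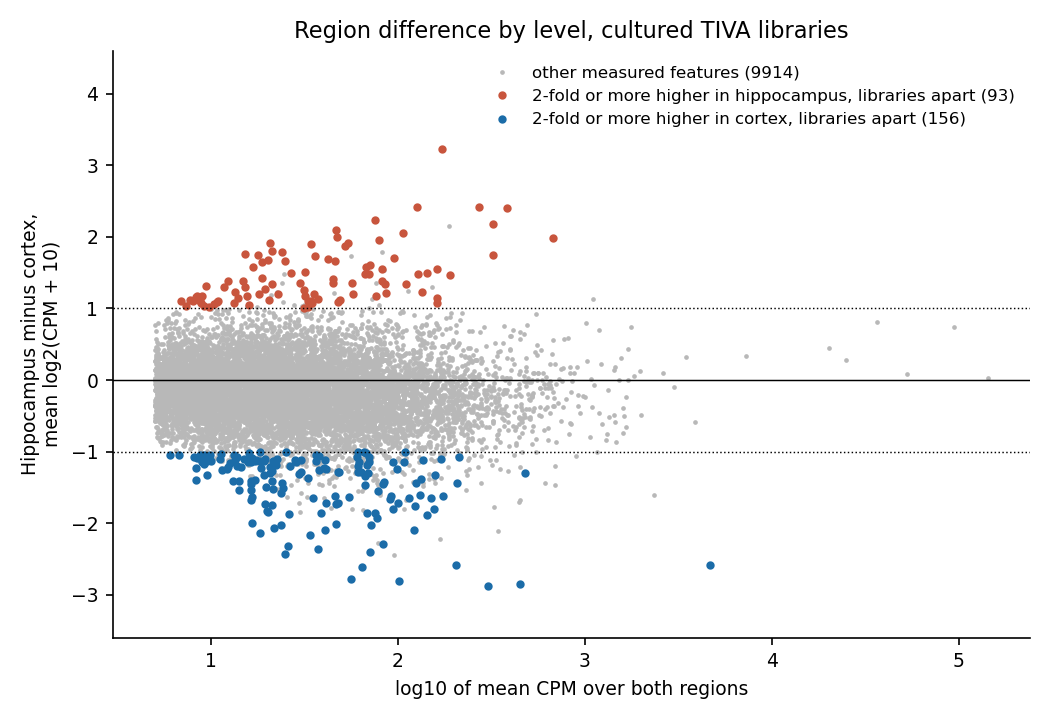
Each point is 1 of the 10163 measured features, placed by the log10 of its mean CPM and by its hippocampal minus cortical mean log2(CPM + 10), with dotted lines at 2-fold. The coloured points are the 93 hippocampus-high and 156 cortex-high features whose cells did not overlap between the regions, and they are spread over the range of levels.

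The 2-fold features were not confined to low levels. Among 4375 features with a mean of 5 to 20 CPM, 0.846% were 2-fold higher in hippocampus and 1.85% in cortex. The shares were 1.41% and 5.45% among 4459 features of 20 to 100 CPM, and 1.58% and 6.92% among 1329 features of 100 CPM or more. The pseudocount of 10 CPM shrinks differences of low features, which lowers the share in the first class. Differences of 4-fold or more were found in 9 features higher in hippocampus, 8 of them without overlap, and in 24 features higher in cortex, 20 of them without overlap.

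Almost no feature was present in all cells of a region and absent from the other. At 20 CPM or more in all 4 cells, 3314 features were on in hippocampus and 3904 in cortex, of which 2921 were on in all 8 cells. No feature was on in all 4 hippocampal cells and below 1 CPM in all 4 cortical cells. A single feature was on in all 4 cortical cells and below 1 CPM in all 4 hippocampal ones. At these thresholds only that 1 feature was on in every cell of a region and off in every cell of the other. Lower levels in the other region were more common. Of the first 25 features of each direction, described below, 6 hippocampus-high ones averaged below 5 CPM in cortex. In hippocampus 8 cortex-high ones averaged below 5 CPM.

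Among features averaging at least 20 CPM in the higher region, with at least 10 reads in each of its cells and no overlap, 148 were higher in hippocampus and 229 in cortex. The size of the difference on the log2(CPM + 10) scale set their order, and the first 2 of each direction are named. These values were the ones that chose them, and are given as a description.

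The feature with the largest hippocampal excess was uc012dxq.1:uc008xvw.2:uc008xvv.2, which joins 3 isoform identifiers. It stood at 15.5, 27.3, 23.5 and 26.0 CPM in the cortical TIVA cells and at 237, 233, 254 and 557 CPM in the hippocampal ones. The cortical cells were all low, 3 hippocampal cells were close together, and hippocampal library 4 was far above them. The ratio of the means was 13.9 and the log2 difference 3.23, against SDs of 0.25 in cortex and 0.59 in hippocampus. Summed over cells the level was 22.8 CPM in cortex (95% Poisson interval 21.4 to 24.2) and 279 CPM in hippocampus (275 to 282). These intervals cover counting error only, and the spread between cells was wider.

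That excess was not present in the other single neurons. In pipette-collected cultured cells uc012dxq.1 was at 0, 28.1, 0 and 0 CPM in cortex and at 6.17, 4.34 and 3.68 CPM in hippocampus, a log2 difference of 0.07. In tissue TIVA cells it was at 0.127 and 11.7 CPM in cortex and between 0 and 7.75 CPM in 5 hippocampal cells, a difference of -0.40. Bulk hippocampus held 100.1, 128 and 81.4 CPM. Among the hippocampal samples the feature was thus high in cultured TIVA cells and in bulk tissue, and low in every other hippocampal single neuron.

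The second hippocampus-high feature, uc009jmk.1:uc009jml.1, stood apart between the regions in every collection. In cultured TIVA cells it was at 21.6, 45.9, 44.2 and 23.1 CPM in cortex and at 238, 167, 209 and 263 CPM in hippocampus, a 6.51-fold ratio and a log2 difference of 2.42. Summed over cells the levels were 34.2 CPM (32.55 to 35.9) and 209 CPM (205 to 212). In the pipette cells it was at 36.4, 47.0, 69.3 and 43.9 CPM in cortex and at 386, 249.6 and 565 CPM in hippocampus, an 8.14-fold ratio. Group means were higher by pipette than by TIVA in both regions, at 49.2 and 33.7 CPM in cortex and at 400.2 and 219 CPM in hippocampus. In tissue TIVA cells it was at 304 and 18.3 CPM in cortex and at 4563, 5559, 4045, 2258 and 2844 CPM in hippocampus, a 23.9-fold ratio and a log2 difference of 5.28. Bulk hippocampus held 1117, 519 and 584 CPM. Neurons of hippocampal tissue carried more of it than hippocampal neurons in culture, and no cortical cell reached the lowest hippocampal cell of its own collection.

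The largest cortical excess was that of uc008lqv.2:uc008lqy.2:uc008lqx.2:uc008lqu.2:uc008lqw.2:uc008lqt.2:uc008lqz.1:uc008lqs.2, which joins 8 identifiers. It was at 907, 464, 493 and 324 CPM in the cortical TIVA cells and at 84.6, 44.7, 48.4 and 73.5 CPM in the hippocampal ones. The ratio of means was 8.72 in favour of cortex and the log2 difference -2.88. Summed levels were 556 CPM (549.8 to 563) and 59.7 CPM (58.0 to 61.4). The pipette cells did not divide by region in this feature, at 19.5, 900.3, 86.6 and 208 CPM in cortex and at 118, 107 and 116 CPM in hippocampus (log2 difference -0.32). Tissue TIVA cells also overlapped, at 139 and 43.2 CPM in cortex and 11.6 to 254 CPM in hippocampus (0.23). Cortical cells spread widely in the pipette collection, where 1 cell reached the level of the cortical TIVA cells and the others did not.

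The second cortex-high feature, uc007rik.2:uc007rie.2:uc007rif.1:uc007rih.2:uc007rij.2:uc007rii.2:uc007rig.1, was higher in cortex without overlap in all 3 collections. In cultured TIVA cells it was at 482, 927, 1268 and 489 CPM in cortex and at 169, 54.2, 48.2 and 150.4 CPM in hippocampus, a 7.50-fold ratio and a log2 difference of -2.85. Summed levels were 828 CPM (820.2 to 837) and 94.6 CPM (92.4 to 96.8). Pipette cells were at 976, 903, 572 and 313 CPM in cortex and at 82.3, 67.2 and 105 CPM in hippocampus, an 8.16-fold ratio. The 8 cultured cortical cells of both collections thus all lay above the 7 cultured hippocampal ones. Tissue TIVA cells were at 1464 and 2396 CPM in cortex and at 99.5, 56.3, 905, 885 and 330.2 CPM in hippocampus, a 4.24-fold ratio. Bulk hippocampus held 440, 278 and 384 CPM, above every cultured hippocampal neuron.

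**Figure D4:**
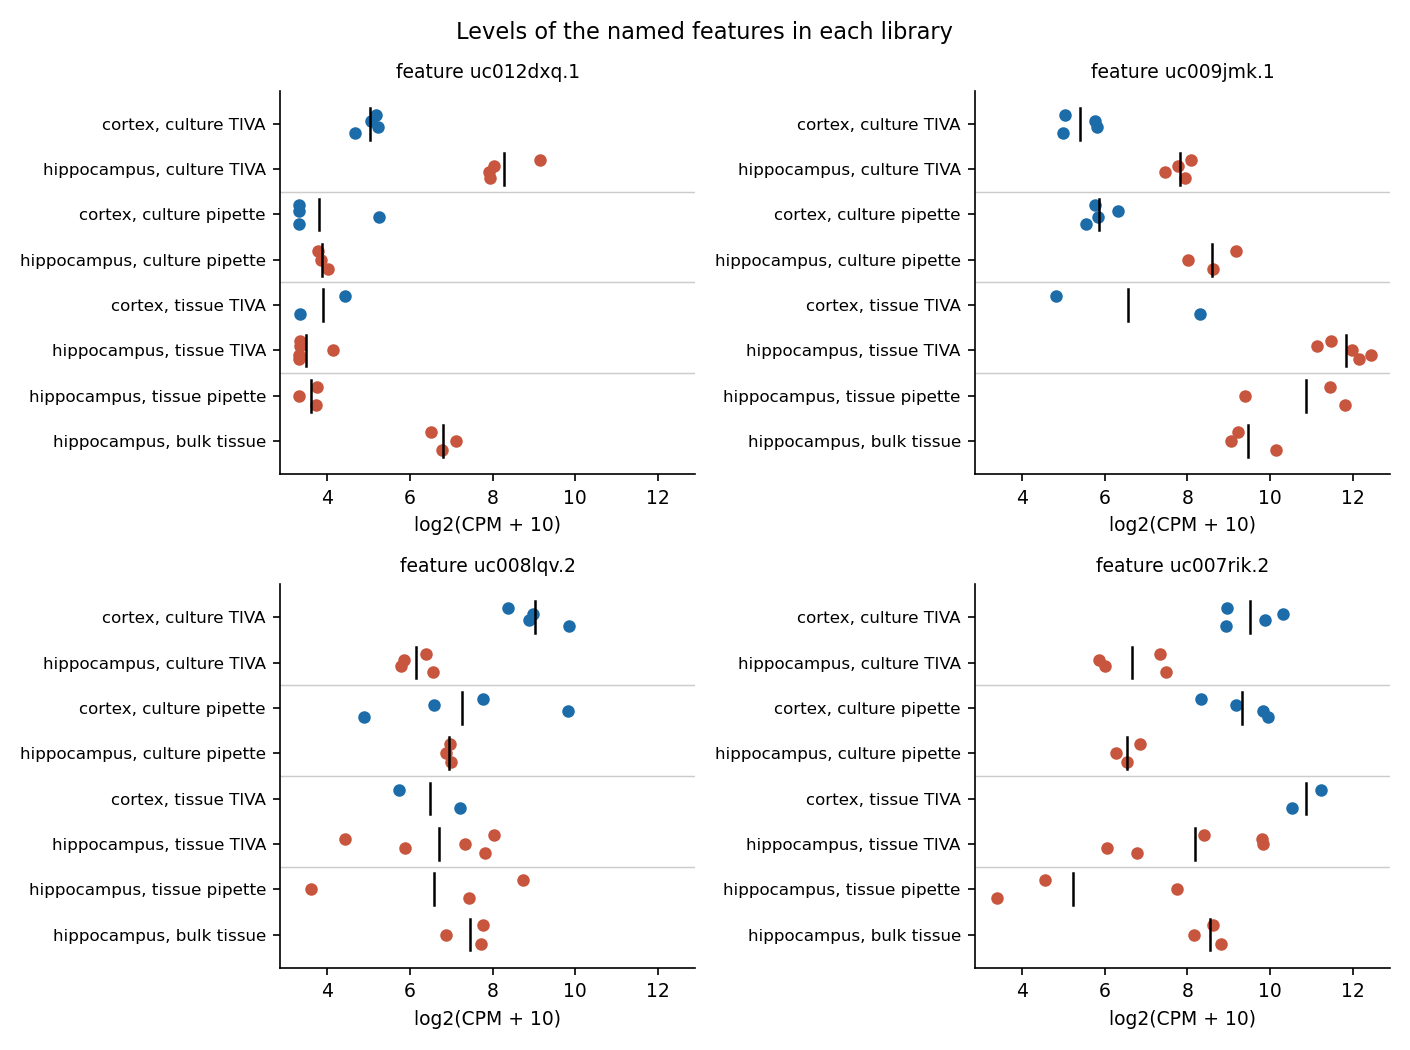
Each panel shows 1 named feature, by the first identifier of its name, as log2(CPM + 10) in each library (points; cortex blue, hippocampus red) with the group mean as a black line. Features uc009jmk.1 and uc007rik.2 divide the regions in cultured TIVA, cultured pipette and tissue TIVA cells, whereas uc012dxq.1 and uc008lqv.2 divide them only in cultured TIVA cells.

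The first 25 features of each direction by the same ranking were described as sets. The hippocampus-high set had a median of 16.9 CPM in cortical and 90.8 CPM in hippocampal TIVA cells, and the cortex-high set 107 and 10.8 CPM. Across the single cells the median member of the hippocampus-high set was at 17.0, 13.6, 23.5 and 8.97 CPM in the cortical libraries and at 91.1, 75.4, 67.5 and 145 CPM in the hippocampal ones. The median member of the cortex-high set was at 77.0, 111, 110.0 and 54.9 CPM in cortex and at 5.91, 6.52, 9.01 and 26.2 CPM in hippocampus. In both sets hippocampal library 4 was the highest hippocampal cell and cortical library 4 the lowest cortical cell, so the contrast within these sets is not equal across cells. The log2 differences ran from 1.67 to 3.23 in the first set (median 1.91, and 2.06 with hippocampal libraries 2 and 3 taken once) and from -2.88 to -1.86 in the second.

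The cultured pipette neurons share no library with the TIVA neurons and were used to look at the same 50 features again. Of the 25 hippocampus-high features, 21 were higher in hippocampus among pipette cells, 14 by 2-fold or more, and in 13 all 3 hippocampal cells lay above all 4 cortical cells. Over all measured features those shares were 59.9%, 14.4% and 11.1%. The set's median difference there was 1.23, beside 0.17 for all measured features, and its median level was 14.5 CPM in cortex and 99.9 CPM in hippocampus. Of the 25 cortex-high features, 16 were higher in cortex among pipette cells, 4 by 2-fold or more, and 2 without overlap, while 2 others were higher in hippocampus without overlap. Over all measured features the shares higher in cortex were 40.1%, 7.22% and 3.61%, and 11.1% were higher in hippocampus without overlap. The cortex-high set's median difference was -0.21, beside 0.17 for all measured features. Its median level was 19.7 CPM in cortical and 20.2 CPM in hippocampal pipette cells.

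The most abundant member of each set shows the 2 outcomes among pipette cells. The most abundant hippocampus-high feature was at 710.5, 174, 294 and 95.1 CPM in cortical TIVA cells and at 996, 753, 919 and 1469 CPM in hippocampal ones. It was again apart in pipette cells, at 20.4 to 336 CPM in cortex and 954 to 1923 CPM in hippocampus, and in tissue TIVA cells, at 2.79 and 0.378 CPM in cortex and 430.4 to 1029.5 CPM in hippocampus. The most abundant cortex-high feature was at 6540.5, 16599, 3377 and 5415 CPM in cortical TIVA cells and at 306, 1939.7, 1181 and 2134 CPM in hippocampal ones. In pipette cells it overlapped between the regions, at 1689 to 8033 CPM in cortex and 1669 to 10289 CPM in hippocampus. In tissue TIVA cells it was again apart, at 626 and 313 CPM in cortex and 80.3 to 295 CPM in hippocampus. Of the 4 groups of cultured neurons, only the hippocampal TIVA cells had values below 1669 CPM, in 2 of 4 cells.

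The same asymmetry was found over all features that met both criteria. Of the 93 hippocampus-high features, 48 (51.6%) were 2-fold or more higher in hippocampus among pipette cells, where 14.4% of all measured features were. The median difference of the 93 in pipette cells was 1.09. With hippocampal libraries 2 and 3 taken once, 126 hippocampus-high features met both criteria, and 47.6% of those 126 were 2-fold higher among pipette cells. Of the 156 cortex-high features, 20 (12.8%) were 2-fold or more higher in cortex among pipette cells, where 7.22% of all measured features were, and their median difference was -0.07. With TMM scaling the shares were 36.1% of 169 hippocampus-high features beside 9.71% of all measured, and 18.8% of 128 cortex-high features beside 10.95%. Both shares lay above those of all measured features under both scalings, by more in the hippocampus-high features. Across all measured features the differences in TIVA and in pipette cells had r of 0.228, a description over features that share libraries.

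**Figure D5:**
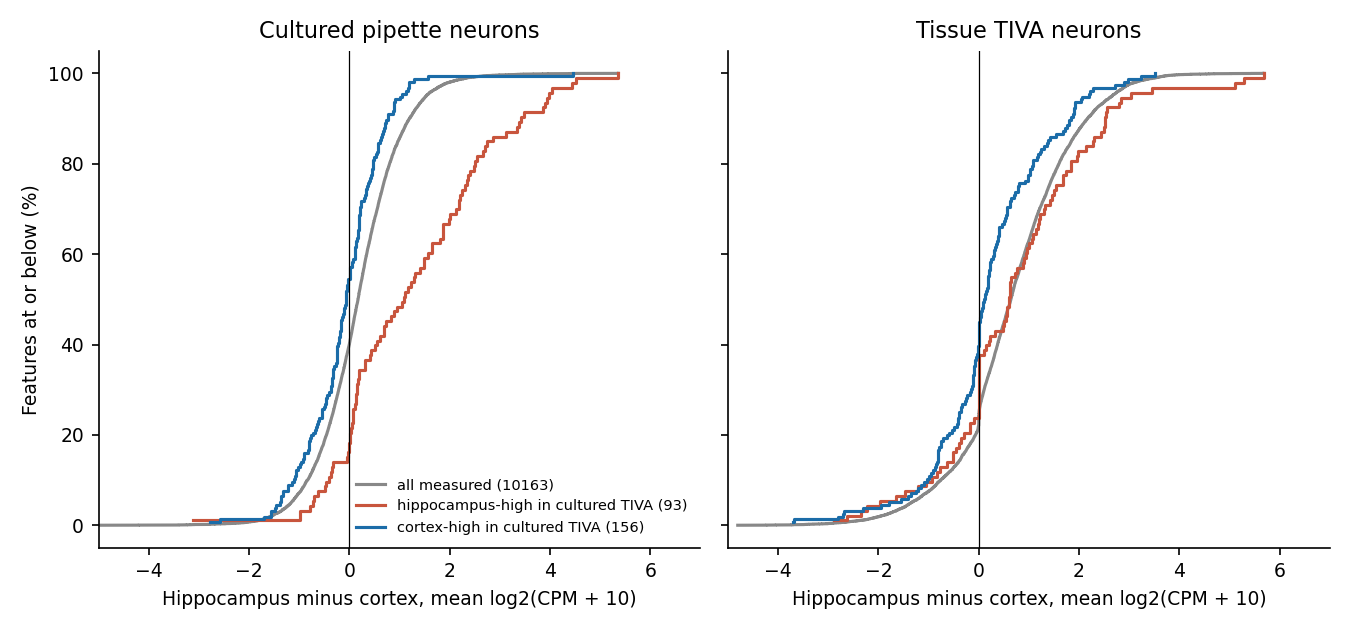
The curves give the percentage of features at or below each hippocampal minus cortical difference in mean log2(CPM + 10), in cultured pipette neurons and in tissue TIVA neurons, for all measured features and for the 93 hippocampus-high and 156 cortex-high features of cultured TIVA neurons. The hippocampus-high curve lies far to the right in pipette neurons (median 1.09, against 0.17 for all) and along the curve of all features in tissue (0.61 against 0.64). The cortex-high features have a median of -0.07 in pipette neurons and of 0.12 in tissue.

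By absence of overlap alone, 77 of the 239 hippocampus-high features (32.2%) again had every hippocampal pipette cell above every cortical one, beside 11.1% of all measured features. The reverse held in 3 of the 239, beside 3.61% of all measured. Of the 373 cortex-high features, 13 (3.49%) again had every cortical pipette cell above every hippocampal one, beside 3.61% of all measured. In 33 of the 373 the order was the reverse, beside 11.1% of all measured. Hippocampus-high features thus recurred above the background of the pipette comparison and cortex-high features recurred at that background. With TMM scaling the shares were 18.3% beside 7.67% for hippocampus and 8.38% beside 5.08% for cortex, so the result for cortex-high features depended on the scaling.

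Tissue neurons gave no such recurrence over the 93 or the 239 hippocampus-high features. Among TIVA neurons of tissue, 5 hippocampal and 2 cortical, 37% of all measured features were 2-fold or more higher in hippocampus and 7.56% in cortex. Of the 93 hippocampus-high features of culture 36 (38.7%) were 2-fold higher in hippocampal tissue cells, close to that background. Of the 156 cortex-high features 16 (10.3%) were 2-fold higher in cortical tissue cells. By direction alone, 39.7% of the 156 were higher in cortex, beside 22.1% of all measured, with a median difference of 0.12 beside 0.64. Of the 93 hippocampus-high features 75.3% were higher in hippocampus, beside 77.9%. The 2-fold shares were also taken under another scaling. With TMM scaling the shares were 32.5% of 169 hippocampus-high features beside 30.7% of all measured, and 27 of 128 cortex-high features (21.1%) beside 11.1%, so the cortex-high share stood above its background by more than on assigned reads. Every hippocampal tissue cell lay above both cortical ones in 55 of the 239 hippocampus-high features (23.01%), beside 21.3% of all measured. Both cortical cells lay above every hippocampal one in 12 of the 373 cortex-high features (3.22%), beside 2.63%. Of the first 25 hippocampus-high features, 12 were 2-fold higher in hippocampal tissue cells and 1 in cortical ones, and 8 were apart with hippocampus higher. The set's median difference was 0.89, beside 0.64 for all measured features. Of the first 25 cortex-high features, 7 were 2-fold higher in cortical tissue cells and 4 in hippocampal ones, with 3 apart in each direction. That set's median difference was -0.33. Across all measured features r with the cultured TIVA differences was 0.065. The cortical tissue libraries were the 2 smallest of the tissue TIVA cells, at 7.89 and 5.30 M assigned reads, and detected 7885 and 6841 features at the common depth, fewer than any hippocampal tissue TIVA cell. The part of that in the tissue background was not tested.

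A small group of features divided the regions in all 3 collections. In 27 of the 10163 measured features every hippocampal cell lay above every cortical cell of the same collection in cultured TIVA, cultured pipette and tissue TIVA neurons. Of these, 12 were also 2-fold or more higher in each. With TMM scaling there were 31, of which 14 were 2-fold in each. Feature uc009jmk.1 was among them. For cortex there was 1 such feature under either scaling, uc007rik.2, and it was 2-fold or more higher in cortex in each collection. The 2 directions have unlike backgrounds on assigned reads. In the 3 collections, in the order above, 2.35%, 11.1% and 21.3% of measured features were apart with hippocampus higher. With cortex higher the shares were 3.67%, 3.61% and 2.63%.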

How the data were processed

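Poly(A) RNA of single neurons was amplified, prepared with TruSeq and sequenced as paired ends, per the labels' protocols. The authors deposited whole-number read counts per feature for each library; the submitters' processing notes list HTSeq (no version), CASAVA 1.8.1 and the genome build mm9. Not given in the sources used here were the aligner, the overlap mode and whether strand was used. Overlapping, antisense and near-identical features may therefore share reads. The tables hold 28661 features, 11967 of them joining several identifiers, and 0 of 55419 identifiers matched the reference tables, so gene lists, markers and sequences were not used. The 5 HTSeq summary lines (3 of them at 0) were left out of library sizes.

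Counts were scaled to CPM and compared as log2(CPM + 10), with a mean of 5 CPM as filter. Libraries were thinned with a fixed seed for detection. Alternatives were TMM (edgeR 4.0.16) and DESeq2 1.42.0 size factors, used for scaling only, other pseudocounts and filters, summed counts and leaving out each library. Named features are the first 2 per direction, by log2 difference, with a mean of 20 CPM, 10 reads in each library of the higher group and no overlap. The comparison, lists and rules were chosen with earlier results of these data known. Python 3.11.15 (pandas 2.3.3, numpy 2.4.6) and R 4.3.3 were used. Intervals are exact Poisson at 95% and cover counting error only. Library numbers follow record order and pair nothing.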

Additional observations from a re-analysis of the deposited data

Results flagged for a closer look

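The level of uc012dxq.1 in hippocampal cultured TIVA library 4, 557 CPM, lay far from the other 3 hippocampal cells of that group at 233 to 254 CPM, the gap to the nearest being 0.935 of the group's range, above the Dixon critical value of 0.829 for 4 samples. Of 18 groups examined this was the 1 value so marked, and chance marks about 1 in 20 groups. Without that library the log2 difference between the regions was 2.94, and with it 3.23.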

How the results depend on the processing

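The differences of the 4 named features kept their direction under the alternatives run for them: 3 other scalings, a pseudocount of 1 CPM, summed counts, each library left out, and both alternatives added after seeing the data. Filters do not enter their values. The named features were chosen without overlap in these libraries, so only the 3 other scalings could have reversed a direction. The counts moved. For features 2-fold higher in hippocampus (121), TMM gave 228, DESeq2 size factors 208, reads outside the 50 most abundant features 356 and a pseudocount of 1 CPM 413. For those higher in cortex (416), the values were 210 with TMM, 231 with DESeq2 size factors, 1339 with a pseudocount of 1 CPM and 757 with summed counts, and 301 to 842 with single libraries left out. With no overlap as well, hippocampus-high features (93) numbered 169, 154, 232 and 182 under those first 4 alternatives. Cortex-high features (156) numbered 305 with a pseudocount of 1 CPM, 100 with a filter at 20 CPM and 149 to 573 with single libraries left out. Leaving out cortical library 3 and hippocampal library 4, an alternative chosen after seeing the data like that of counting hippocampal libraries 2 and 3 once, gave 635 and 483 cortex-high features. The median difference of -0.16 changed sign to 0.029 (TMM) and 0.0044 (DESeq2). With scaling to reads outside the 50 most abundant features the median difference was -0.0068. The cause of these moves was not tested.

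The similarity gap, the mean of both within-region medians minus the between-region median, was 0.0363; it was 0.0515 at 20 CPM, 0.0475 with Spearman's rho and 0.0206 to 0.0518 with libraries left out. The correlation with pipette differences was 0.180 with a pseudocount of 1 CPM and 0.152 to 0.295 with libraries left out. That with tissue differences was 0.0768 with that pseudocount, 0.0765 at 20 CPM, 0.0509 with summed counts and 0.0510 to 0.0758 with libraries left out. Features on in cortex and off in hippocampus numbered 0 with on at 50 CPM, 2 with off below 3 CPM and 1 to 2 with libraries left out, and the reverse 0 to 1.

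No paired analysis was possible because the labels give no replicate numbers. With 4 cells per region and no named animal or culture, the spread between cells is the only error available.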
